A study of Homo sapiens with 6 samples.

Results

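Collagens other than collagen IV were examined in 6 RNA-sequencing libraries of SW1353, an established human cell line from a chondrosarcoma (a malignant cartilage-forming tumour). The members were all genes of the deposited table whose symbol has the form COL, a number, A and a number, leaving out the collagen IV chains and COL18A1. That gave 37 genes of the 60691 in the table. They comprised 11 fibrillar collagens, 10 FACITs (fibril-associated collagens with interrupted helices), 5 collagen VI chains, 4 transmembrane collagens and 7 others. A set of 7 cartilage collagens (COL2A1, COL9A1, COL9A2, COL9A3, COL10A1, COL11A1 and COL11A2) crossed these classes.

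The shSIRT1 group (3 libraries) carried a lentiviral short hairpin RNA that the labels assign to SIRT1, which encodes a deacetylase that uses NAD+. The shfirefly group (3 libraries) carried a lentiviral hairpin against firefly luciferase, a gene that human cells lack. Both groups grew at 37 °C in 3% oxygen for 48 h from seeding, so low oxygen was shared by all libraries, and the design text gives the replicates of each group as biological. The treatment protocol in the labels names an EPAS1 hairpin instead of SIRT1, whereas sample names and the design text name SIRT1. SIRT1 averaged 13.6 ± 0.953 CPM in shSIRT1 and 24.95 ± 0.984 CPM in shfirefly libraries, and EPAS1, which encodes HIF-2α, averaged 233 ± 10.5 CPM in shSIRT1 and 456 ± 40.8 CPM in shfirefly libraries (SD, n = 3 each). Both fell (adjusted p = 2.3e-09 for SIRT1 and 5.8e-07 for EPAS1 by the edgeR quasi-likelihood test, Benjamini-Hochberg over 16591 genes). The levels therefore do not tell the hairpins apart, and the name shSIRT1 follows the sample names. CPM are read counts relative to library size after TMM scaling. Total counts were 24993064 to 29564361 in shSIRT1 and 28556696 to 32044191 in shfirefly libraries. RNA came from bulk cultures, in which fewer expressing cells and less RNA per cell cannot be told apart.

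Collagens are built from alpha chains that wind around each other in groups to form a rope-like helix, which needs a glycine in each triplet of residues. Fibrillar collagens (types I, II, III, V, XI, XXIV and XXVII) assemble into the load-bearing fibrils of connective tissue. FACITs decorate the surface of those fibrils, collagen VI forms beaded microfibrils around cells, and the transmembrane collagens stay anchored in the plasma membrane. Cartilage is known for collagen II fibrils with collagens IX and XI, and collagen X marks hypertrophic chondrocytes.

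The glycine repeat that defines the family was read in the coding sequences of GENCODE 29, in which all 37 members had a complete reading frame. The longest uninterrupted run of triplets starting with a glycine codon was 216 to 343 triplets in the 11 fibrillar genes. It was 32 to 113 triplets in the 10 FACITs, 37 to 87 in the 5 collagen VI genes and 43 to 56 in the 4 transmembrane genes. Stretches of 45 coding bases from the longest run of 4 members described below show the pattern, with the glycine codons in capitals and all coordinates on GRCh38. They come from COL5A1 (338 triplets, chr9:134752601-134752645, forward strand), COL6A3 (45 triplets, chr2:237357347-237357391, reverse strand), COL12A1 (32 triplets, chr6:75102008-75102052, reverse strand) and COL9A2 (113 triplets, chr1:40311102-40311146, reverse strand).
COL5A1: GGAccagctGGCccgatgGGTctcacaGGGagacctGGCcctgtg
COL6A3: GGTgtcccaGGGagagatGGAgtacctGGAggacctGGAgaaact
COL12A1: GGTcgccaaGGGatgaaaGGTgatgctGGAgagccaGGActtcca
COL9A2: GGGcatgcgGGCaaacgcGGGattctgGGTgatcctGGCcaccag
In each stretch the glycine codon recurs every 9 bases, and the codons between differ from gene to gene.

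A few genes took most collagen reads in both groups. All 37 members together took 1.57% ± 0.0599 of the counts in shSIRT1 and 2.38% ± 0.0826 in shfirefly libraries (SD, n = 3 each), and every shSIRT1 library lay below every shfirefly library. Of the reads on members, COL6A3 held 43.5% ± 0.350 in shSIRT1 and 45.4% ± 0.654 in shfirefly libraries. Long transcripts give more reads, so these shares are compared between groups and not between genes. COL1A1 held 23.9% ± 0.407 in shSIRT1 and 19.1% ± 0.627 in shfirefly libraries, and COL5A1 held 12.2% ± 0.251 in shSIRT1 and 13.4% ± 0.156 in shfirefly libraries. The fibrillar class made up 42.1% ± 0.259 of member reads in shSIRT1 and 37.7% ± 0.509 in shfirefly, while collagen VI made up 54.7% ± 0.227 in shSIRT1 and 59.6% ± 0.506 in shfirefly. The makeup of the collagen reads differed between groups by more than the spread within them.

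Of the 37 members, 20 had enough reads to be tested, and 14 of these changed: 12 fell and 2 rose at an adjusted p under 0.05 in the same test. Over all genes tested 52.8% changed, with 26.0% lower and 26.8% higher. For 14 of the 20 members every shSIRT1 library lay on 1 side of every shfirefly library in CPM, against 59.7% of all genes tested. The median log2 fold change was -0.47 over the 20 members and 0.005 over all genes. All 8 members averaging at least 100 CPM fell, and of the 2057 tested genes above that level 44.1% were lower and 33.3% higher, a level chosen after the values were seen.

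**Figure D1:**
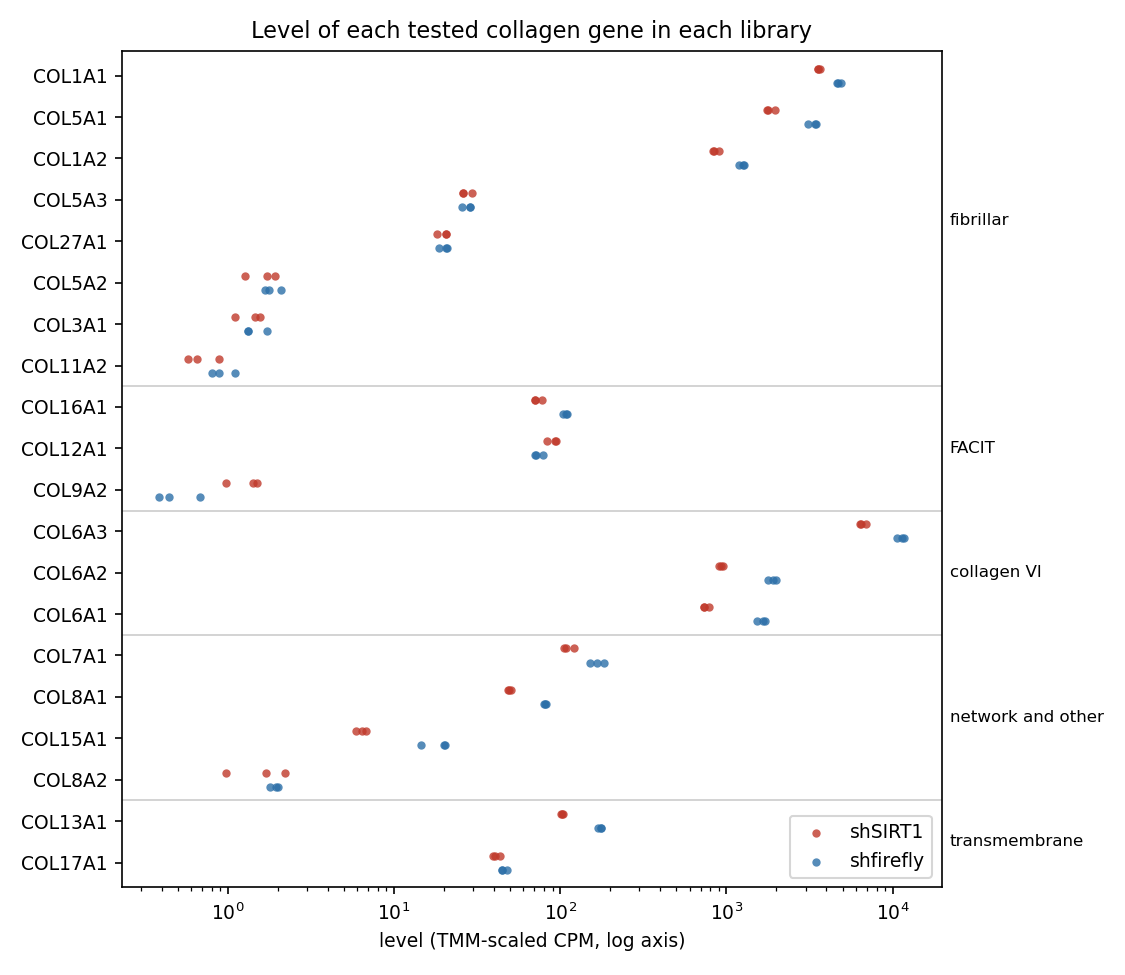
Level of each of the 20 tested collagen genes (TMM-scaled CPM, log axis) in each of the 3 shSIRT1 (red) and 3 shfirefly (blue) libraries, 1 point per library, arranged by class. The abundant genes COL6A3, COL1A1, COL5A1, COL6A2, COL6A1 and COL1A2 lie lower in every shSIRT1 library, and COL12A1 and COL9A2 lie higher.

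All 3 tested collagen VI genes fell, against 26.0% of all genes tested and 44.1% of those averaging at least 100 CPM. Their median log2 fold change of -1.03 was the lowest of the class medians. The collagen VI network is built from monomers of the chains encoded by COL6A1, COL6A2 and COL6A3. COL6A1 measured 784, 733 and 732 CPM across shSIRT1 libraries, against 1653, 1697 and 1529 CPM across shfirefly libraries (2.17-fold lower, log2 fold change -1.12 ± 0.04 SE, adjusted p = 2.1e-14). COL6A2 measured 955, 899 and 923 CPM across shSIRT1 libraries, against 1901, 1978 and 1786 CPM across shfirefly libraries (2.04-fold lower, log2 fold change -1.03 ± 0.04 SE, adjusted p = 2.1e-14). COL6A3, the longest chain, measured 6870.0, 6429.6 and 6321 CPM across shSIRT1 libraries, against 11754, 11437 and 10623 CPM across shfirefly libraries (1.72-fold lower, log2 fold change -0.79 ± 0.04 SE, adjusted p = 4.2e-12). For each of these genes the groups stood far apart, with no overlap and a narrow spread inside each group. The other collagen VI genes, COL6A5 and COL6A6, were close to absent: each had 2 reads, both in shSIRT1 replicate 3.

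The proportions of the collagen VI chains differed between groups. The ratio of COL6A1 to COL6A2 counts per kilobase of exon does not depend on library scaling. It was 0.816 ± 0.0145 in shSIRT1 and 0.868 ± 0.00745 in shfirefly libraries (SD, n = 3 each). COL6A3 to COL6A1 was 2.38 ± 0.0215 in shSIRT1 and 1.89 ± 0.0504 in shfirefly libraries, so the COL6A3 transcript was the better kept of the pair. Neither ratio overlapped between groups. COL6A1 (45981737 to 46005050) and COL6A2 (46098097 to 46132849) lie in tandem on the forward strand of chromosome 21 of GRCh38, 93.0 kb apart, and COL6A3 (237324003 to 237414375) lies on the reverse strand of chromosome 2. All are protein-coding, and no annotated gene overlaps any of them in GENCODE 29.

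Promoter windows are shown because the design text asks about transcription by HIF-2α, whose known binding motif contains ACGTG or GCGTG. RefSeq promoters (GRCh38.p14) were available for 25 members. The 250 bases before the RefSeq transcript start were searched on both strands. The search covered these motifs (matches may overlap), the TATA-box letters TATAAA and CCAAT. All but CCAAT are in capitals below. The windows are COL6A2 (chr21:46097862-46098111, forward strand), COL6A3 (chr2:237414165-237414414, reverse strand) and, as the tested member with the largest fall, COL15A1 (chr9:98943657-98943906, forward strand).
COL6A2: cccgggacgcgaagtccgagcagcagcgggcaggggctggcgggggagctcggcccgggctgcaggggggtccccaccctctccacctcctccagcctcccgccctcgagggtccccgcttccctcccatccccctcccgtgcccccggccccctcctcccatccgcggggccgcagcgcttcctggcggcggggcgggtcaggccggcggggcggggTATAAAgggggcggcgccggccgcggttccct
COL6A3: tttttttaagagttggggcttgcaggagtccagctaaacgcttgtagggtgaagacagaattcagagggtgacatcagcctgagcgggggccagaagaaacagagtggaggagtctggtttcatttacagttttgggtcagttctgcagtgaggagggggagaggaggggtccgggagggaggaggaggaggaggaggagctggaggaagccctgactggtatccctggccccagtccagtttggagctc
COL15A1: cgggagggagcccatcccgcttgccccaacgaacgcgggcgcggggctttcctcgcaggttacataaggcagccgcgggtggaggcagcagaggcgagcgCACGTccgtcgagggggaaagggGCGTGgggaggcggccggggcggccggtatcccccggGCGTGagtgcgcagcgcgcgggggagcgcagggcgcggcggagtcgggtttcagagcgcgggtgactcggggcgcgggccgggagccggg
COL15A1 held 1 ACGTG and 2 GCGTG matches, COL6A2 held 1 TATAAA, and COL6A3 held none of these. Of the 8 members that fell and had a promoter, 3 held ACGTG or GCGTG, against 43.1% of 27305 promoters, and 4 held TATAAA, against 11.1%. Over the 25 matched members TATAAA was in 5 and either HIF motif in 11, and over the 14 tested ones TATAAA was in 4 and either HIF motif in 6. CCAAT was in 1 of the 8, against 33.0% of promoters. Those of the 8 with TATAAA were COL6A2, COL7A1, COL13A1 and COL17A1, and the COL17A1 call was lost under 9 of 17 alternative settings. COL1A1, COL1A2, COL6A1 and COL8A1 also fell but had no promoter available to search. A match describes letters in this window and is not a binding site. The RefSeq starts differ from the starts in the gene coordinates given elsewhere in the text. By those coordinates the whole COL15A1 window lies inside the gene (98943179 to 99070792). Most of the COL6A3 window also lies inside its gene (237324003 to 237414375). Most of the COL6A2 window lies before its gene (46098097 to 46132849).

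Among fibrillar collagens COL1A1, COL1A2 and COL5A1 fell, and the others tested did not pass. Of 11 genes 8 were tested, 3 fell and 5 did not pass, with a median log2 fold change of -0.28. The share lower over all genes tested was 26.0%. COL1A1 and COL1A2 encode the chains of collagen I, the main fibril collagen of bone and skin. COL1A1 measured 3674, 3551 and 3535 CPM across shSIRT1 libraries, against 4688, 4899.5 and 4626 CPM across shfirefly libraries (1.32-fold lower, log2 fold change -0.40 ± 0.04 SE, adjusted p = 6e-09). COL1A2 measured 901, 831 and 843.5 CPM across shSIRT1 libraries, against 1267, 1271 and 1189 CPM across shfirefly libraries (1.45-fold lower, log2 fold change -0.53 ± 0.04 SE, adjusted p = 2.6e-10). Both genes were lower in each shSIRT1 library, by less than the collagen VI genes. COL1A1 lies on chromosome 17 (50183289 to 50201632, reverse strand), and COL1A2 on chromosome 7 (94394561 to 94431232, forward strand), where 1 annotated gene overlaps it on the other strand.

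Of the chains of collagen V, which joins collagen I in fibrils and limits their diameter, only COL5A1 passed the test. The standard error of COL5A2 is wide beside the change of COL1A1, so COL5A2 may still have changed. COL5A1 measured 1948, 1754 and 1789 CPM across shSIRT1 libraries, against 3439, 3404 and 3109.9 CPM across shfirefly libraries (1.81-fold lower, log2 fold change -0.86 ± 0.05 SE, adjusted p = 4.7e-11). COL5A3 measured 29.4, 26.1 and 26.1 CPM across shSIRT1 libraries, against 28.6, 28.7 and 25.7 CPM across shfirefly libraries, with overlapping groups (log2 fold change -0.02 ± 0.07 SE, adjusted p = 0.80). COL5A2, whose chain usually pairs with that of COL5A1, averaged 1.64 ± 0.340 CPM in shSIRT1 and 1.84 ± 0.227 CPM in shfirefly libraries (log2 fold change -0.16 ± 0.22 SE, adjusted p = 0.56). The transcripts of these partner chains were therefore of very unequal abundance. Per kilobase of exon, COL5A1 exceeded COL5A2 by a factor of 765 ± 156 in shSIRT1 and 1217 ± 201 in shfirefly libraries, and COL5A3 by 40.6 ± 0.683 in shSIRT1 and 72.3 ± 0.791 in shfirefly libraries (SD, n = 3 each). COL5A1 (chromosome 9, 134641774 to 134844843, forward strand) contains the antisense gene COL5A1-AS1.

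The remaining tested fibrillar members did not pass either. COL27A1, a fibrillar collagen of developing cartilage, measured 20.54, 20.55 and 18.1 CPM across shSIRT1 libraries, against 20.9, 18.7 and 20.55 CPM across shfirefly libraries (log2 fold change -0.02 ± 0.07 SE, adjusted p = 0.81). COL3A1, which accompanies collagen I in stretchable tissues, averaged 1.38 ± 0.241 CPM in shSIRT1 and 1.46 ± 0.230 CPM in shfirefly libraries (log2 fold change -0.09 ± 0.24 SE, adjusted p = 0.78). COL11A2, a collagen XI chain of cartilage fibrils, averaged 0.702 ± 0.159 CPM in shSIRT1 and 0.932 ± 0.158 CPM in shfirefly libraries (log2 fold change -0.39 ± 0.31 SE, adjusted p = 0.30). The groups overlapped for these 3 genes, and the standard errors of COL3A1 and COL11A2 are wide beside the change of COL1A1. COL3A1 and COL5A2 lie 19.1 kb apart on chromosome 2, on opposite strands. Per kilobase of exon COL3A1 was at 0.203 CPM in shSIRT1 and 0.214 CPM in shfirefly libraries, far below COL1A1 in both groups.

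**Figure D2:**
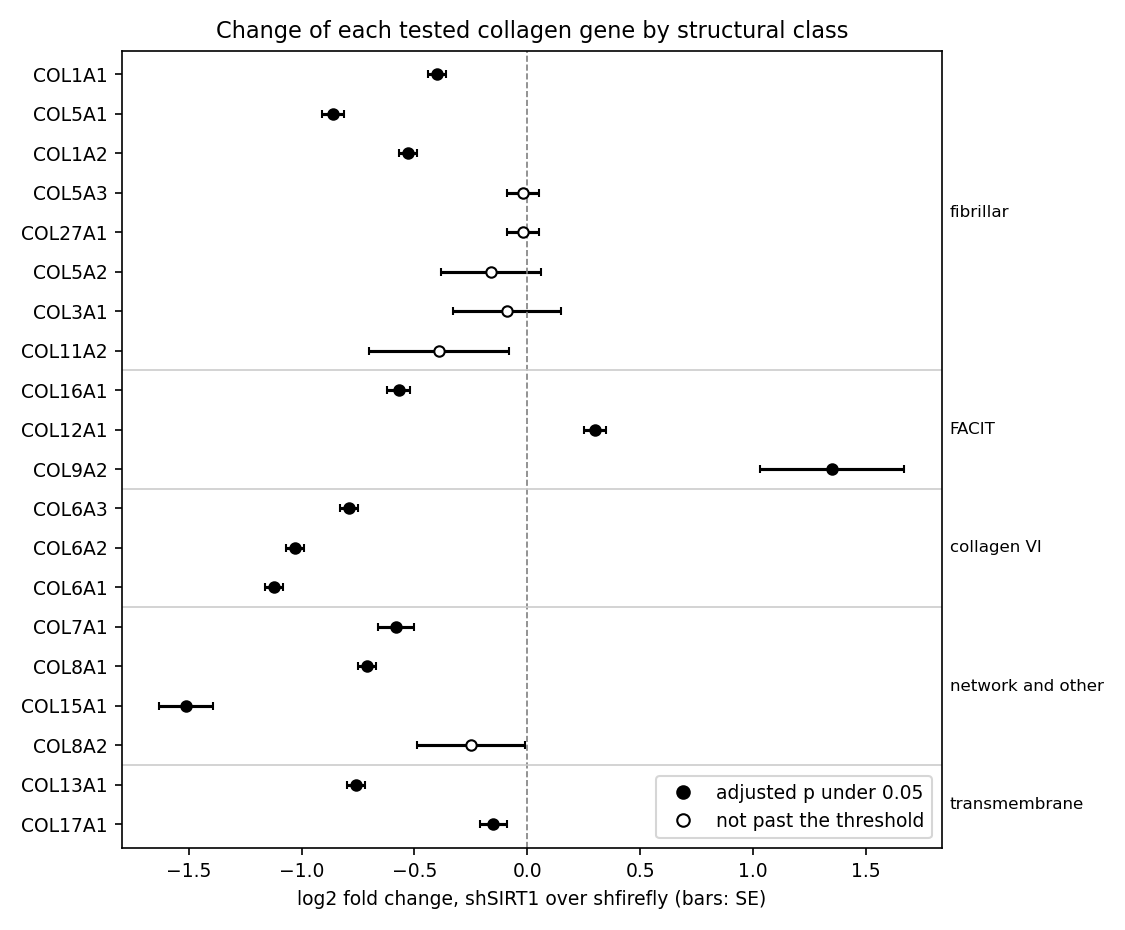
Log2 fold change of each tested collagen gene, shSIRT1 over shfirefly, with its standard error, by class; filled points passed an adjusted p under 0.05 and open points did not. All 3 tested collagen VI genes lie between -1.12 and -0.79, and COL12A1 (0.30) and COL9A2 (1.35) are the points to the right of 0.

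FACITs went in both directions. Of 10 genes 3 were tested, and all changed, against 52.8% of all genes tested: COL12A1 and COL9A2 rose and COL16A1 fell. COL12A1, which binds collagen I fibrils in tendon and other dense tissues, measured 93.9, 93.3 and 83.1 CPM across shSIRT1 libraries, against 78.3, 71.8 and 70.3 CPM across shfirefly libraries (1.23-fold up, log2 fold change 0.30 ± 0.05 SE, adjusted p = 0.0001). COL16A1 measured 77.9, 70.3 and 70.15 CPM across shSIRT1 libraries, against 110.3, 109 and 104 CPM across shfirefly libraries (1.48-fold lower, log2 fold change -0.57 ± 0.05 SE, adjusted p = 1.6e-09). Neither gene overlapped between groups. Per kilobase of exon COL12A1 reached 7.22 ± 0.489 CPM in shSIRT1 and 5.89 ± 0.342 CPM in shfirefly libraries, and COL16A1 reached 7.85 ± 0.478 CPM in shSIRT1 and 11.6 ± 0.337 CPM in shfirefly libraries (SD, n = 3 each). With the longest transcript as the length COL12A1 averaged 7.69 CPM per kilobase in shSIRT1 and 6.27 in shfirefly, and COL16A1 averaged 12.7 in shSIRT1 and 18.8 in shfirefly, so how close the levels of this pair lay in shSIRT1 depends on the length used. COL12A1 lies at 75084326 to 75206051 on chromosome 6 and COL16A1 at 31652247 to 31704319 on chromosome 1, both on the reverse strand, and 1 annotated gene overlaps COL16A1 on the other strand.

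COL9A2, a chain of cartilage collagen IX, rose from a low base. It had 46, 30 and 37 reads in the shSIRT1 libraries and 21, 12 and 12 reads in the shfirefly libraries, and averaged 1.30 ± 0.279 CPM in shSIRT1 and 0.505 ± 0.158 CPM in shfirefly (2.54-fold up, log2 fold change 1.35 ± 0.32 SE, adjusted p = 0.0013). The groups did not overlap. Its partner chains were scarcer: COL9A3 had 8, 6 and 5 reads in shSIRT1 and 8, 7 and 6 reads in shfirefly libraries, and COL9A1 had no read in any library. That leaves COL9A1 at under 0.0343 CPM over the shSIRT1 and under 0.0338 CPM over the shfirefly libraries, the limit that 3 reads per group set by counting error alone.

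The 7 cartilage collagens were near the detection limit as a set. That set leaves out COL27A1, which averaged 19.7 CPM in shSIRT1 and 20.1 CPM in shfirefly libraries. Only COL9A2 and COL11A2 of the 7 were tested, and all 7 together took 0.0177% ± 0.000924 of member reads in shSIRT1 and 0.00733% ± 0.00127 in shfirefly libraries (SD, n = 3 each). As a share of all counts they took 0.000277% ± 2.32e-05 in shSIRT1 and 0.000175% ± 3.53e-05 in shfirefly libraries, a smaller gap. COL2A1, the defining fibril collagen of cartilage, had 8, 19 and 3 reads in the shSIRT1 libraries and 2, 1 and 0 reads in the shfirefly libraries. Every shSIRT1 library held more COL2A1 reads than every shfirefly library, and the replicates of shSIRT1 differed among themselves by several fold. The ratio of summed reads over library size was 10.1 for COL2A1 (95% exact interval 3.15 to 51.9, counting error only). COL2A1 was below the read minimum of the test, while the authors' deposited table gives it a log2 fold change of 3.30 with an adjusted p of 0.018. COL11A1 had 10 reads in shSIRT1 and 7 in shfirefly libraries (ratio 1.45, 0.498 to 4.48), and COL10A1 had no read in shSIRT1 and 3 in shfirefly libraries.

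Apart from SOX9, the chondrocyte markers of this line were absent, scarce or present at a few CPM. The 15 markers include the members COL2A1, COL9A1 and COL11A2. They summed to 65.4 to 66.6 CPM in shSIRT1 and 58.4 to 64.96 CPM in shfirefly libraries, mostly from SOX9. Of the 7 tested, 2 rose and 3 fell, against 26.8% higher and 26.0% lower over all genes tested. CNMD, COL9A1 and EPYC had no read in any library. The aggrecan gene ACAN averaged 0.679 ± 0.194 CPM in shSIRT1 and 1.51 ± 0.270 CPM in shfirefly libraries and fell (log2 fold change -1.16 ± 0.29 SE, adjusted p = 0.0018). SOX9, the transcription factor that drives COL2A1 in chondrocytes, was present at 53.1 ± 1.18 CPM in shSIRT1 and 43.7 ± 2.54 CPM in shfirefly libraries and rose (log2 fold change 0.28 ± 0.05 SE, adjusted p = 0.0001). Its partners SOX5 and SOX6 had 3 and 6 reads in shSIRT1 and 1 and 9 reads in shfirefly libraries. The line thus carried SOX9 transcripts with almost no collagen II transcript. The matrix genes HAPLN1 (4.28 ± 0.529 CPM in shSIRT1 and 8.08 ± 0.634 CPM in shfirefly libraries, adjusted p = 1.9e-06) and MATN3 (4.81 ± 0.330 CPM in shSIRT1 and 3.78 ± 0.254 CPM in shfirefly libraries) were detected at a few CPM. The summed level of 11 fibroblast and mesenchymal markers was 5868 to 6040.1 CPM in shSIRT1 and 7355 to 7947 CPM in shfirefly libraries, of 8 epithelial markers 366 to 386 CPM in shSIRT1 and 313 to 323 CPM in shfirefly, and of 8 osteoblast markers (DMP1, IBSP and SP7 at 0) 36.99 to 39.9 CPM in shSIRT1 and 45.1 to 48.1 CPM in shfirefly. Single genes made up most of these sums. VIM alone averaged 5807 ± 100.5 CPM in shSIRT1 and 7442 ± 286 CPM in shfirefly libraries. Of the 8 tested markers of that list 3 fell, 1 rose and 4 did not pass, against 26.0% lower and 26.8% higher over all genes tested. KRT18 averaged 304.5 ± 7.88 CPM in shSIRT1 and 253 ± 4.72 CPM in shfirefly libraries. Most of the rest of the epithelial sum was KRT8, which did not pass. Of the 5 tested epithelial markers 2 rose (KRT18 and CLDN4) and 3 did not pass, against 26.8% higher over all genes tested. CLDN4 averaged 10.6 ± 1.22 CPM in shSIRT1 and 3.43 ± 0.0645 CPM in shfirefly libraries. Immune markers (7 genes, mostly CSF1R, 6.495 to 8.83 CPM in shSIRT1 and 13.1 to 15.4 CPM in shfirefly) and endothelial markers (6 genes, 1.87 to 2.51 CPM in shSIRT1 and 2.85 to 3.97 CPM in shfirefly) were low. The part of these marker shifts in the collagen changes was not tested.

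Of the remaining collagens, COL15A1 had the largest fall of the tested members. This gene encodes a multiplexin, a basement-membrane-zone collagen with a heavily interrupted helix. It measured 6.45, 6.75 and 5.92 CPM across shSIRT1 libraries, against 20.2, 19.98 and 14.6 CPM across shfirefly libraries (2.85-fold lower, log2 fold change -1.51 ± 0.12 SE, adjusted p = 2.1e-08). Replicate 3 was the lowest of each group, and the groups did not overlap. COL15A1 is on chromosome 9 (98943179 to 99070792, forward strand), with 1 annotated gene overlapping on the other strand.

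COL8A1, a short-chain collagen of vessel walls and the eye, and COL7A1, the anchoring-fibril collagen of skin, also fell. COL8A1 measured 50.5, 49.3 and 48.7 CPM across shSIRT1 libraries, against 82.5, 80.5 and 79.5 CPM across shfirefly libraries (1.63-fold lower, log2 fold change -0.71 ± 0.04 SE, adjusted p = 2.8e-11). COL7A1 measured 121, 106 and 108 CPM across shSIRT1 libraries, against 182, 167 and 152 CPM across shfirefly libraries (1.497-fold lower, log2 fold change -0.58 ± 0.08 SE, adjusted p = 0.00025). Both were lower in every shSIRT1 library. COL8A2, the partner chain of COL8A1, was scarce, with 1.63 ± 0.621 CPM in shSIRT1 and 1.92 ± 0.100 CPM in shfirefly libraries, and did not pass (log2 fold change -0.25 ± 0.24 SE, adjusted p = 0.41).

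The transmembrane collagens COL13A1 and COL17A1 were expressed, and the other 2 were nearly unread: COL23A1 had 1 read in shSIRT1 and 1 in shfirefly libraries, and COL25A1 had 2 in shSIRT1 and none in shfirefly. COL13A1, found at cell-matrix and nerve-muscle junctions, measured 103, 104 and 101 CPM across shSIRT1 libraries, against 169, 176 and 177 CPM across shfirefly libraries (1.69-fold lower, log2 fold change -0.76 ± 0.04 SE, adjusted p = 9.8e-13). COL17A1, a hemidesmosome component of epithelia, measured 43.6, 40.8 and 39.2 CPM across shSIRT1 libraries, against 48.2, 44.4 and 44.75 CPM across shfirefly libraries (1.11-fold lower, log2 fold change -0.15 ± 0.06 SE, adjusted p = 0.025). COL13A1 was clearly separated between groups, whereas the highest shSIRT1 and lowest shfirefly values of COL17A1 nearly met. The COL17A1 call was lost under 9 of 17 alternative settings, with an adjusted p of up to 0.66 and a log2 fold change of -0.03 with scaling by library totals alone.

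Counts per kilobase put the members in order. In shSIRT1 libraries COL1A1 led with 365 ± 7.73 CPM per kilobase of exon, followed by COL6A3 (333 ± 14.8), COL6A2 (172 ± 5.17), COL5A1 (164 ± 9.24), COL6A1 (140.3 ± 5.53) and COL1A2 (76.95 ± 3.36; SD, n = 3). In shfirefly libraries COL6A3 led with 574 ± 29.7 CPM per kilobase, followed by COL1A1 (483 ± 14.6), COL6A2 (351 ± 17.9), COL6A1 (304 ± 16.2), COL5A1 (297 ± 16.2) and COL1A2 (111 ± 4.18). COL6A2 and COL5A1 in shSIRT1 and COL6A1 and COL5A1 in shfirefly were neighbours whose means lay within the spread of the libraries. With the longest annotated transcript as the length, COL6A3 led in both groups, at 608 CPM per kilobase in shSIRT1 and 1049 in shfirefly, so which of COL1A1 and COL6A3 led in shSIRT1 depends on the length used. The seventh was COL13A1, at 17.5 ± 0.255 CPM per kilobase in shSIRT1 and 29.6 ± 0.801 in shfirefly libraries, well below COL1A2.

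Ratios within a library, free of scaling between libraries, showed that the abundant collagens did not fall by equal amounts. COL1A1 to COL1A2 was 4.63, 4.86 and 4.76 in the shSIRT1 libraries and 4.20, 4.38 and 4.42 in the shfirefly libraries per kilobase of exon. With the longest transcript as the length the means were 3.72 in shSIRT1 and 3.399 in shfirefly. COL5A1 to COL1A1 averaged 0.448 ± 0.0162 in shSIRT1 and 0.614 ± 0.0273 in shfirefly libraries, and COL6A3 to COL1A1 averaged 0.912 ± 0.0212 in shSIRT1 and 1.19 ± 0.0562 in shfirefly libraries. COL1A1 therefore gained relative to COL5A1, COL6A3 and COL1A2. COL12A1 to COL1A1 was 0.0198 ± 0.00114 in shSIRT1 and 0.0122 ± 0.000835 in shfirefly libraries (SD, n = 3 each). None of these ratios overlapped between groups, whereas COL3A1 to COL1A1 did, at 0.000557 ± 0.000107 in shSIRT1 and 0.000445 ± 7.51e-05 in shfirefly libraries.

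**Figure D3:**
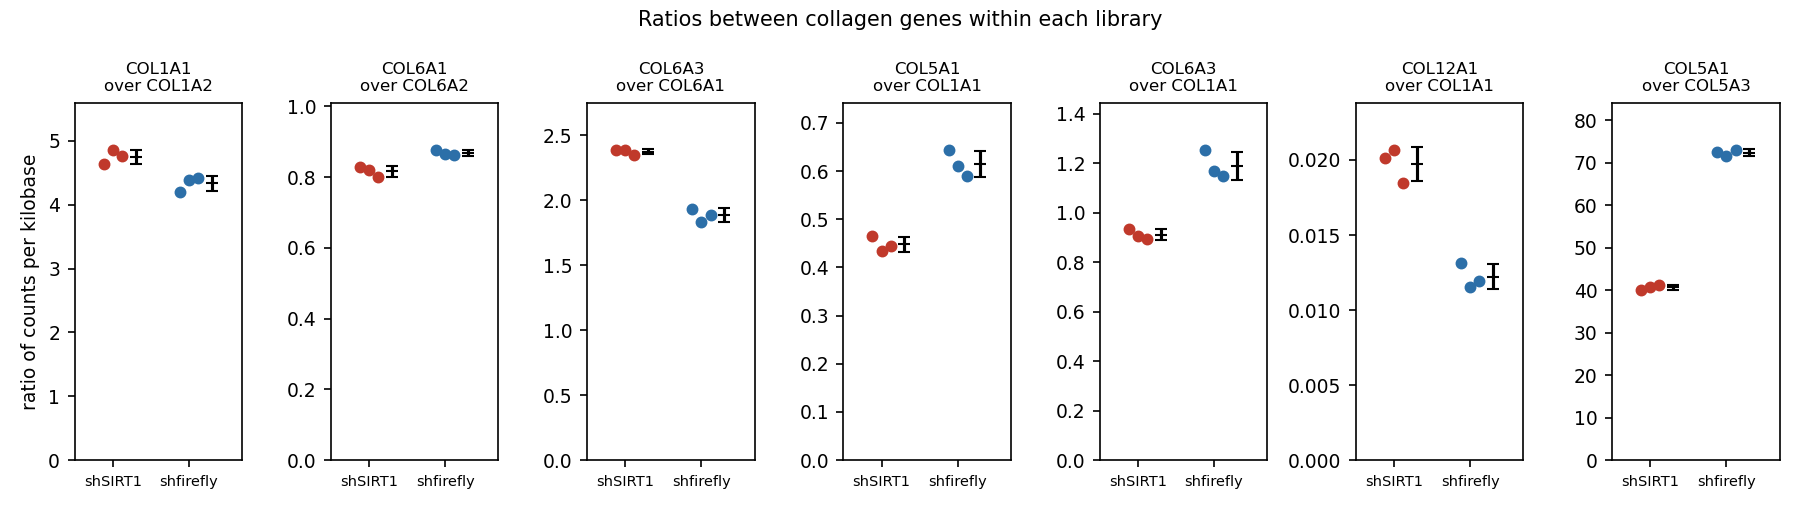
Ratios of counts per kilobase of exon between pairs of collagen genes, each panel with its own linear axis from 0; points are the 3 shSIRT1 (red) and 3 shfirefly (blue) libraries, and bars give mean and SD. COL6A3 over COL6A1 is higher in shSIRT1 (2.38 against 1.89), and COL5A1 over COL1A1 is lower (0.448 against 0.614).

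The other 17 members were below the read minimum and are given as reads. COL20A1, a FACIT, had no read in any shSIRT1 library and 9, 12 and 6 reads in the shfirefly libraries. It was 8.88-fold lower when 3 reads are allowed over the shSIRT1 group and the shfirefly reads are taken without error. That value is not a 95% limit. The authors' deposited table gives COL20A1 an adjusted p of 0.00063. COL21A1 had 2, 3 and 0 reads in shSIRT1 and 11, 5 and 8 reads in shfirefly libraries, a ratio of 0.211 (95% exact interval 0.0630 to 0.565), and COL26A1 had 8 reads in shSIRT1 and 21 in shfirefly libraries, a ratio of 0.386 (0.148 to 0.908). These intervals cover counting error only. Intervals of COL14A1 (5 reads in shSIRT1 and 14 in shfirefly), COL28A1 (8 in shSIRT1 and 17 in shfirefly), COL24A1 (2 in shSIRT1 and 5 in shfirefly) and COL9A3 (19 in shSIRT1 and 21 in shfirefly) included 1. COL19A1 had 4 reads in shSIRT1 and none in shfirefly, COL22A1 had none in shSIRT1 and 1 in shfirefly, and COL25A1, COL6A5 and COL6A6 had 2 reads each, in shSIRT1 replicate 3 alone. Adjusted p-values are given for 25 members in the authors' deposited table, of which 12 are lower and 3 higher at under 0.05. The authors' deposited table and the test used here share 13 calls, out of 15 in that table and 14 here, and COL2A1 and COL20A1 are the calls in that table alone.

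**Figure D4:**
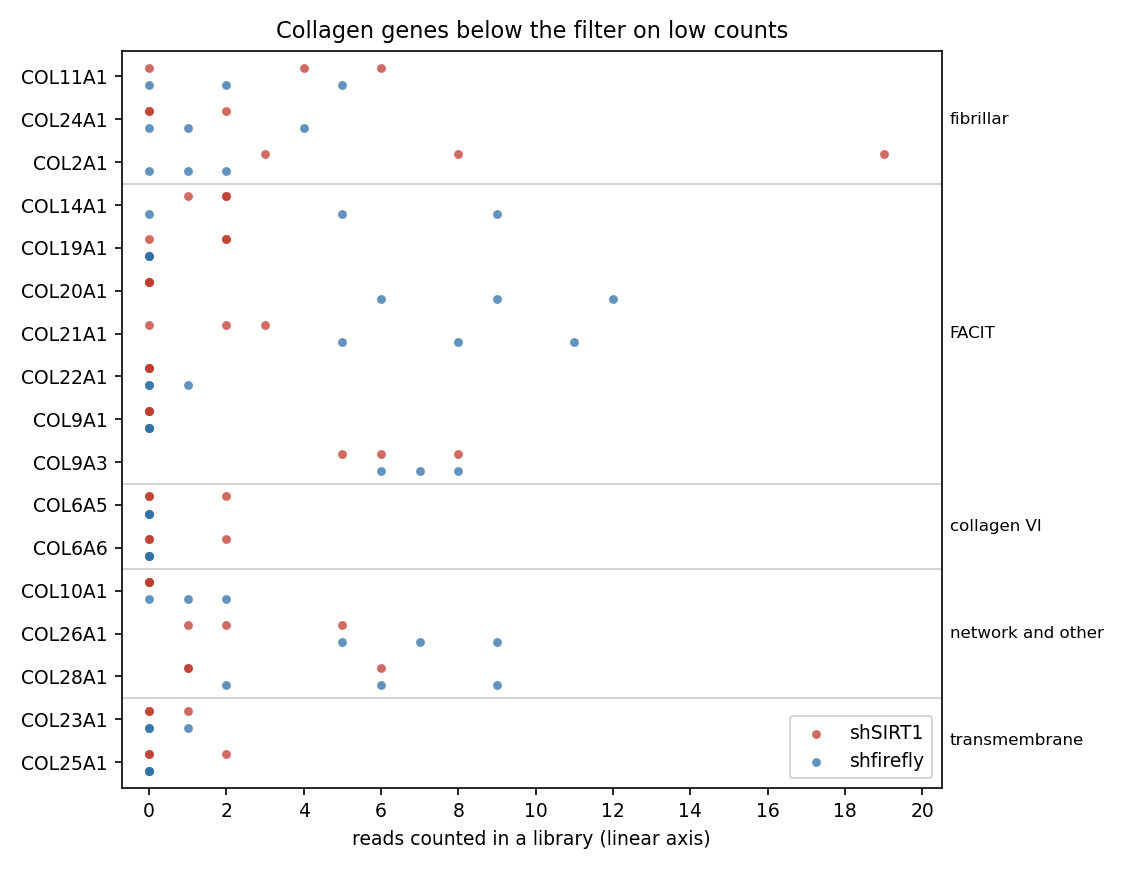
Reads counted per library for the 17 collagen genes below the filter on low counts (linear axis), shSIRT1 in red above shfirefly in blue; libraries with the same count overlie each other. COL2A1 has 8, 19 and 3 reads in shSIRT1 and at most 2 in a shfirefly library, COL20A1 has 0 in shSIRT1 and 6 to 12 in shfirefly, and COL9A1 has 0 throughout.

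Genes that fold, cut, crosslink and bind collagen were described by the same test, against 26.0% lower over all genes. Of tested genes averaging at least 100 CPM, a level that most of the folding genes exceeded, 44.1% were lower. Of 23 genes for folding and secretion, all tested, 17 fell and 6 did not pass, with a median log2 fold change of -0.25. The largest falls were those of the prolyl hydroxylase gene P4HA2 (247 ± 4.92 CPM in shSIRT1 and 498 ± 27.2 CPM in shfirefly) and the lysyl hydroxylase gene PLOD2 (1184 ± 34.8 CPM in shSIRT1 and 2246 ± 15.3 CPM in shfirefly libraries; SD, n = 3 each). Of 12 tested genes for procollagen cleavage and crosslinking, 10 were called lower, 1 higher and 1 did not pass, with a median of -1.01. PCOLCE2, an enhancer of procollagen cleavage, averaged 1.42 ± 0.277 CPM in shSIRT1 and 5.76 ± 0.907 CPM in shfirefly libraries and fell (adjusted p = 4.3e-09), as did the collagen crosslinking enzyme gene LOX (1021 ± 36.9 CPM in shSIRT1 and 2991 ± 111 CPM in shfirefly, adjusted p = 2.3e-17). The procollagen protease gene TLL1 rose on few reads (49 in shSIRT1 and 22 in shfirefly, adjusted p = 0.037). Of 12 tested collagen receptors 11 fell and 1 did not pass, with a median of -0.62. The collagen I receptor subunit ITGA11 averaged 43.1 ± 3.00 CPM in shSIRT1 and 107 ± 7.27 CPM in shfirefly libraries (log2 fold change -1.31 ± 0.06 SE, adjusted p = 2.4e-12).

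Among 13 tested genes of fibril-associated proteins, 7 were called lower, 1 higher and 5 did not pass, with a median of -0.37. The shares over all genes tested were 26.0% lower and 26.8% higher. Biglycan (BGN), a small proteoglycan that binds collagen I and VI, averaged 61.2 ± 3.14 CPM in shSIRT1 and 143 ± 7.48 CPM in shfirefly libraries (log2 fold change -1.22 ± 0.05 SE, adjusted p = 2.6e-14), and the cartilage matrilin gene MATN3 rose (log2 fold change 0.35 ± 0.13 SE, adjusted p = 0.032). Among 11 tested transcription factors that act on collagen genes, 5 were called lower, 2 higher and 4 did not pass, with a median of -0.11. The same shares over all genes apply to this list. SMAD3, the TGF-beta effector, averaged 166 ± 4.57 CPM in shSIRT1 and 238 ± 6.43 CPM in shfirefly libraries and fell (log2 fold change -0.52 ± 0.04 SE, adjusted p = 2.4e-10). RUNX3 rose along with SOX9, to 1.149 ± 0.150 CPM in shSIRT1, against 0.482 ± 0.301 CPM in shfirefly libraries (log2 fold change 1.24 ± 0.37 SE, adjusted p = 0.0074).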

How the data were processed

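The analysis used 1 table covering all 6 libraries, matched to samples by column name. Whole-number read counts in it are raw values deposited by the authors. Further columns hold normalized counts rounded to whole numbers, group means and dispersion values by the authors, each treated here as a score and used in no test. The authors' comparison is deposited as a fold change, its log2 value, and p-values with and without adjustment. The submitters' processing notes name Trimmomatic, STAR, DESeq2 and GRCh38; the sources used here state no versions, counter or strand setting (the library kit in the labels is a stranded one).

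Genes were kept by edgeR 4.0.16 filterByExpr (minimum count 10), scaled by TMM and tested with the quasi-likelihood F test on group alone, in R 4.3.3. Adjusted p-values are Benjamini-Hochberg over 16591 genes. Standard errors are the absolute log2 fold change over the square root of F. The fit was tested on simulated data with known changes. It recovered 76% of 100 genes changed 1.5-fold and 79% of 100 genes changed 2-fold, and called 0.0793% of unchanged genes. No other gene was changed in the simulation, whereas 52.8% of the genes tested were called in the data. The shares recovered therefore do not carry over to these data. A member that did not pass may still have changed, within what its standard error allows. Between libraries of a group a chi-square statistic per gene was 2.67 to 5.58, so none agreed within sampling noise. Lengths and coordinates come from GENCODE 29, matched for all 37 members by Ensembl ID (5 with the same version), so boundaries may differ from the authors'. In that annotation 10 members overlap a same-strand gene and 14 an opposite-strand gene, and their reads may be shared. Alternatives included DESeq2 1.42.0. Every tested member is named. Of each pathway list at most 2 rising and 2 falling genes qualified. SOX5, SOX6, ACAN, HAPLN1, VIM, KRT8, KRT18, CLDN4 and CSF1R were added after their values were seen. Members and lists were chosen with earlier results of these data known.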

Additional observations from a re-analysis of the deposited data

How the results depend on the processing

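Of the 20 tested members 14 kept direction and call under each alternative that gave a value (17 for each member except COL11A2, which the 1 CPM filter removed, with 16). COL17A1 kept its direction but lost its call under 9, among them DESeq2 (adjusted p = 0.072), the offset for GC content and length (0.27) and leaving out shfirefly replicate 1 (0.12), shSIRT1 replicate 2 (0.078) or shSIRT1 replicate 3 (0.13). The 5 members without a call that changed sign did so at log2 values of 0.10 or less. COL27A1 was 0.10 with library totals alone, 0.07 with the GC and length offset (also with the replicate block) and 0.05 without both libraries numbered 3, and -0.07 to 0.03 when 1 library was left out. COL5A3 was 0.10 with library totals and with the offset, with or without the block, and -0.08 to 0.01 with 1 library left out. COL3A1 was 0.03 with library totals and -0.18 to 0.05 with 1 library left out, COL5A2 was 0.09 without both libraries numbered 3, and COL8A2 was -0.52 to 0.02 with 1 library left out.

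Library totals alone moved the median of all genes to 0.126 (6225 called higher and 3021 lower, against 4449 higher and 4311 lower with TMM), and with it the median log2 fold changes of all members (to -0.35), FACITs (0.42), collagen VI (-0.91) and transmembrane collagens (-0.33). Upper-quartile factors gave -1.08 for collagen VI and -0.51 for transmembrane collagens. The GC and length offset, with or without the replicate block, gave -0.87 and -0.36. With 1 library left out the median was -0.58 to -0.45 over all members and -1.08 to -0.99 for collagen VI. The 1 CPM filter left COL9A2 as the cartilage collagen tested (1.34). Without a filter 16 members were called and with DESeq2 15, COL20A1 and COL2A1 being added by both and COL21A1 by leaving out the filter. Deviations of libraries with the same replicate number correlated at -0.0102, -0.0666 and 0.132, and 2 of 6 libraries correlated best with their own number. So few libraries cannot settle whether the numbers pair them. The replicate block gave 14 members called, as without it, and 9176 genes called, against 8760 without it. The members below the read minimum are limited by depth.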
